A study of Mus musculus with 2 samples.

Results

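The glucocorticoid receptor and 9 genes that respond to glucocorticoids or to fasting were followed in the small intestine of mice on diets that differed in their n-3 fatty acids. The members are Nr3c1, which encodes the receptor, and Fkbp5, Klf15, Klf9, Tsc22d3, Sgk1, Zbtb16, Ddit4, Cdkn1a and Dusp1. Every probeset (a set of short probes that reads a transcript) annotated to a member by gene symbol was taken, which gave 29 of the 45037 probesets that are not array controls. Of these, 24 were kept, with at least 1 for each of the 10 genes, because their geometric mean signal over both arrays was at least 50.

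Male C57BL/6J mice, an inbred strain without an engineered allele, were 4 months old and ate semisynthetic diets that held 20% fat by weight during 4 weeks. Flaxseed oil, rich in the n-3 fatty acid ALA, supplied all fat of the control diet (sHFf). In the EPA&DHA diet (sHFf-F2), a concentrate with 6% EPA and 51% DHA took the place of 44% of the lipids. Each diet was fed to 12 mice. Pools were made from RNA of 10 control and of 11 EPA&DHA mice, and each was hybridized to 1 Affymetrix MOE430_2 array. The comparison asks which transcripts differed when part of the ALA-rich oil was exchanged for EPA and DHA. With 1 pool per diet the spread between mice was not measured, so no test, standard error or p-value is given. The deposited values are MAS 5.0 signals in arbitrary units. The labels describe homogenized small intestine and the methods describe scraped epithelial cells. The hour at which the mice were killed and their feeding state are not given in the sources used here.

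Glucocorticoids are steroid hormones of the adrenal cortex that are secreted in a daily rhythm and rise with stress and fasting. In the cell they bind the receptor, which leaves a chaperone complex, enters the nucleus and binds response elements made of a pair of inverted hexamers. Apart from Nr3c1, the members are transcribed in response to the hormone in many tissues, and several answer other signals too. Cdkn1a is also a target of p53, Ddit4 of stress and hypoxia signals, Dusp1 of mitogens, and the clock drives daily rhythms of several members.

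Promoter sequence of the members is shown first, because the members were grouped by how they are thought to be controlled. From RefSeq (build GRCm38.p6), 16 windows of 300 bases for 8 members were used, each from 250 bases before to 50 bases after a transcript start. Member windows were counted after a filter on chromosome that was not applied to the windows of all genes. No window is shown for Nr3c1 and Zbtb16. In the windows printed here in lower case, capitals mark the letters of 4 motifs found on either strand. They are the glucocorticoid response element (GNACA and TGTNC, 3 bases apart, N being any base), the receptor hexamer AGAACA, the E-box CACGTG bound by clock factors, and the cyclic AMP response element TGACGTCA. Fkbp5, Klf15, Tsc22d3 and Sgk1 are shown because their brightest probesets had the highest ratios of the members, and Dusp1 because it lay on the other side of 1 and also holds an E-box.
Fkbp5 (chr17:28486100-28486399, minus strand): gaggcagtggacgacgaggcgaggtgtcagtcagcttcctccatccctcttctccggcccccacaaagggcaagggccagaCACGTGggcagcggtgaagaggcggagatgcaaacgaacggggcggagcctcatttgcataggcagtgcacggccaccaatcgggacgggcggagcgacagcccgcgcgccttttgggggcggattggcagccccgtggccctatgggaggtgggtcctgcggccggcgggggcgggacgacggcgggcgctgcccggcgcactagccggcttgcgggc
Klf15 (chr6:90462326-90462625, plus strand): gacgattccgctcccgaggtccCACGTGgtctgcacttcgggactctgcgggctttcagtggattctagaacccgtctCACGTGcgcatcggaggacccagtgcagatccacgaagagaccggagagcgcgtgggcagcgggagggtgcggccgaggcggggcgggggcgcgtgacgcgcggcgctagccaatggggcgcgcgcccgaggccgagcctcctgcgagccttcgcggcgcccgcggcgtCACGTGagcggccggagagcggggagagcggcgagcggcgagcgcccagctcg
Tsc22d3 (chrX:140600473-140600772, minus strand): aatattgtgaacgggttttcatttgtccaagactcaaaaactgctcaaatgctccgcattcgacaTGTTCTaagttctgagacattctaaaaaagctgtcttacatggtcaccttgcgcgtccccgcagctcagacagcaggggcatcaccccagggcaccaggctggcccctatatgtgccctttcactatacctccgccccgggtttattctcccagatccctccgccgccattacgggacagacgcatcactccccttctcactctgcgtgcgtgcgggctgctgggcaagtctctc
Sgk1 (chr10:21993640-21993939, plus strand): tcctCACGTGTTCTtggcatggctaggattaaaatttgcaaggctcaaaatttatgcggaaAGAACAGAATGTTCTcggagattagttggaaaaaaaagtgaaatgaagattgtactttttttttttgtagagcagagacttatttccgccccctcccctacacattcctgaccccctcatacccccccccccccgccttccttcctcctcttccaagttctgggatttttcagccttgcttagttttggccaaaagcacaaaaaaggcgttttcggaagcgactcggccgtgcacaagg
Dusp1 (chr17:26508423-26508722, minus strand): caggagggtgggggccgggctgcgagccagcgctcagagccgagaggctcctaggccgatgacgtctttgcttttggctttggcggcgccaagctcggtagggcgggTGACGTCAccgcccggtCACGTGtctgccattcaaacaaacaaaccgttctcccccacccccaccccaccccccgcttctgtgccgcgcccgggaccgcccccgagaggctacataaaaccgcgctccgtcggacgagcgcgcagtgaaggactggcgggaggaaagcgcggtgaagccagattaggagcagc

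The response element was found in 1 of the 16 member windows, that of Sgk1, where it began 188 bases before the start. It was present in 0.475% of all 32851 windows in the RefSeq table. Hexamers that begin 189 and 180 bases before the start overlap it, each reaching 1 base beyond it, and another hexamer of Sgk1, 242 bases before the start, overlaps an E-box that begins 246 bases before it. RefSeq lists 6 starts for Sgk1 and 3 for Tsc22d3, of which the window with the most marked motifs is shown, and the array signal was not assigned to any start. The hexamer alone lay in 4 member windows, of Sgk1 and Tsc22d3, against 19.0% of all windows. E-boxes lay in the windows of Klf15, Fkbp5, Sgk1 and Dusp1, against 7.15% of all windows, and Klf15 held 3 of them, which began 228, 172 and 3 bases before the start. The cyclic AMP response element lay in the Dusp1 window, 143 bases before the start, against 1.79% of all windows. A forkhead site (TGTTTAC) lay in the Klf9 window, 100 bases before the start, against 3.65% of all windows. The PPAR response element (AGGTCA repeated after 1 base) was found in 0 member windows and in 0.0396% of all windows. Only exact matches to both copies were sought. These are so rare that finding 0 in 16 windows cannot tell whether the members hold such sites. Matches describe the letters of these windows and were not tested for binding.

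**Figure D1:**
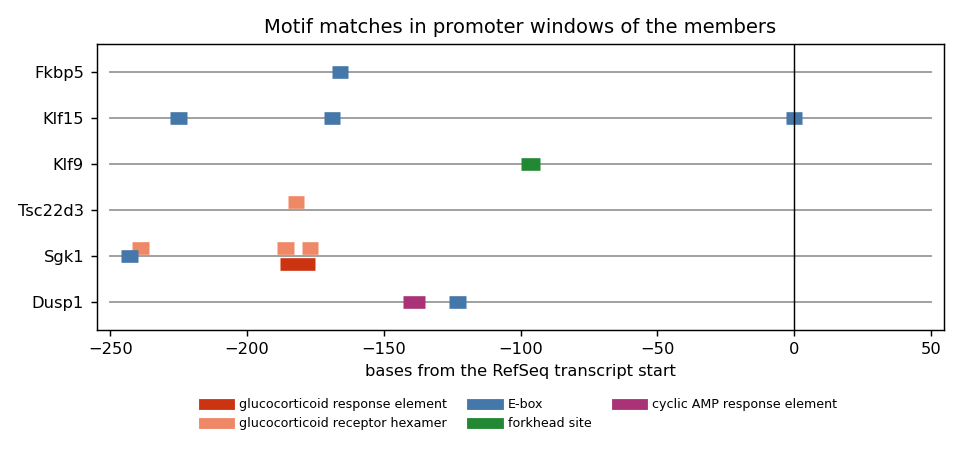
Motif matches (coloured bars) in a promoter window of 6 members (rows), by position in bases from the RefSeq transcript start (x axis, start at 0). Klf15 has 3 E-boxes, and the Sgk1 row holds the response element, drawn below the hexamers that overlap it.

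Among the members, Klf15 and Fkbp5 had signals at least 1.5-fold higher in the EPA&DHA pool, Zbtb16 had a signal at least 1.5-fold lower, and the other 7 lay between these bounds. A gene is represented by its brightest kept probeset. At this level 2 of 10 members were at least 1.5-fold higher, against 6.24% of the 11756 genes measured, and 1 of 10 was at least 1.5-fold lower, against 8.02%. With the mean of all kept probesets of each gene in place of the brightest, 1 member (Klf15) was at least 1.5-fold higher and 0 were lower, and the median log2 ratio of the members was 0.18. The shares of all genes were not computed with such means. On the brightest probesets, none of the 10 was 2-fold apart, a size that 1.61% of all genes reached in the higher and 2.26% in the lower direction. The members had 5 log2 ratios above 0 and 5 below, from -0.95 to 0.82, and their median of -0.05 equalled the median of all genes at this rounding. Counted by probeset, 6 of 24 were at least 1.5-fold higher, against 8.11% of the 24461 kept probesets, and 1 of 24 was at least 1.5-fold lower, against 9.01%. Among these 6, the Klf9 probeset 1422264_s_at had 37.7 in the control pool, below the bound of 50, and 68.8 in the EPA&DHA pool. It was kept only through its EPA&DHA signal. With a minimum signal of 100, 4 member probesets were at least 1.5-fold higher. With an offset of 50 added to each signal, 3 of the 24 were at least 1.5-fold higher. The share of all probesets was not computed for that minimum or that offset, so 8.11% is not its match. Each ratio is set beside the local SD, the robust SD of the log2 ratios of the 500 kept probesets nearest in signal. It describes the array pair, not the error between mice. Of the 10 genes, 3 (Fkbp5, Sgk1 and Klf15) lay at least 2 local SDs above 0, against 3.50% of all genes.

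**Figure D2:**
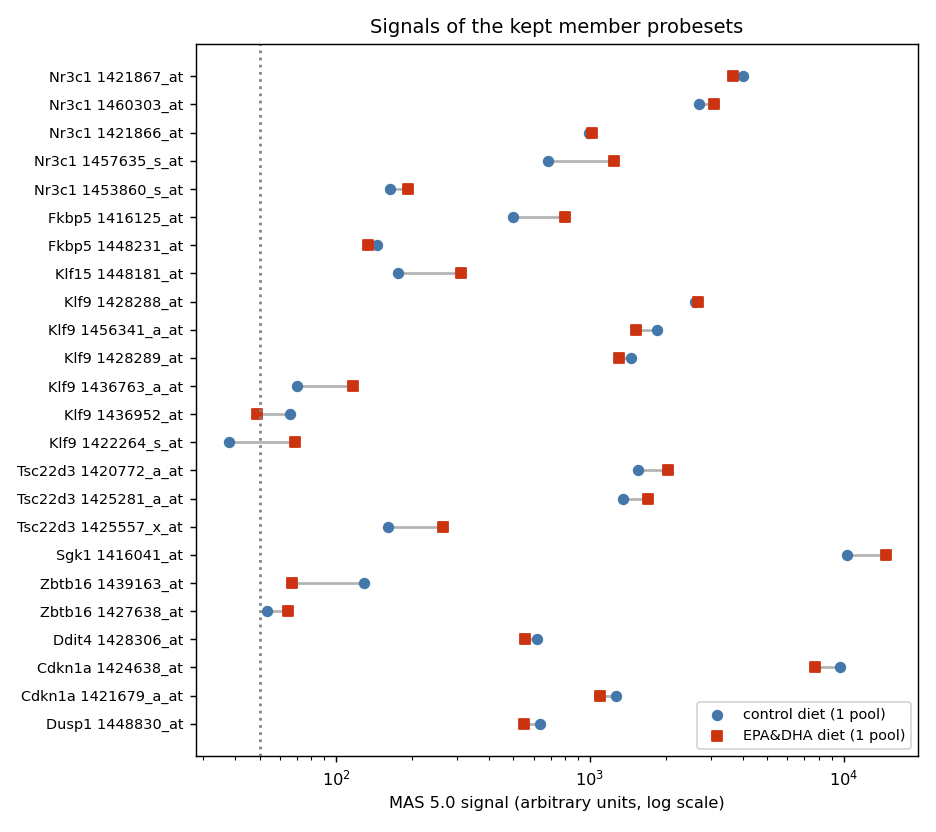
MAS 5.0 signal (x axis, log scale) of the 24 kept member probesets (rows) in the control pool (blue circles) and the EPA&DHA pool (red squares); the dotted line is a signal of 50. The Sgk1 probeset moves from 10327 to 14631, while the first Klf9 probeset stays between 2590.4 and 2664.

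The receptor itself did not have the same direction on all of its probesets. Nr3c1 was read by 6 probesets, of which 5 were kept. Of these 5, 4 had a log2 ratio above 0 and 1, the brightest, lay below. The brightest (1421867_at) read 4019 in the control pool and 3650 in the EPA&DHA pool, a log2 ratio of -0.14 with a local SD of 0.20. The next (1460303_at) had 2697 and 3097, and another (1421866_at) had 993 and 1018. These differ in sign and lie within 1 local SD of 0. A probeset that may read transcripts of several genes (1457635_s_at) stood apart, with 685 in the control pool against 1243 in the EPA&DHA pool, 1.81-fold higher and 3.27 local SDs from 0. A dimmer one of the same kind had 164 and 193. Averaged over the 5 kept probesets, the log2 ratio of Nr3c1 was 0.24, so its sign depends on which probesets are used.

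Genes for proteins that handle the receptor or the hormone mostly lay near a ratio of 1 on their brightest probesets. For this and each list below, the matching shares of all genes are 6.24% at least 1.5-fold higher and 8.02% lower. Of 14 listed chaperones and coactivators, which hold the receptor ready or help it to activate genes, 10 were measured. On their brightest probesets 0 were at least 1.5-fold apart in either direction, with a median log2 ratio of -0.08. Other kept probesets of Dnaja1 and Ncoa2 reached 1.31 and -1.16. Of 11 listed genes of corticosteroid synthesis and inactivation, 8 were measured, 0 were at least 1.5-fold higher, and 1 was lower by that much. That gene was Cyp11a1, the side-chain cleavage enzyme that starts steroid synthesis, with dim signals of 75.9 in the control and 40.2 in the EPA&DHA pool. The highest was Hsd11b2, which inactivates corticosterone, with a log2 ratio of 0.33 and a local SD of 0.35.

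Fkbp5, a co-chaperone that lowers the affinity of the receptor for its hormone, read 496 in the control pool and 800.3 in the EPA&DHA pool on its brightest probeset (1416125_at). This is 1.61-fold higher, a log2 ratio of 0.69 with a local SD of 0.27. Its other kept probeset (1448231_at) had 145 and 133, on the opposite side of 1. The mean log2 ratio of both was 0.29, which is under 1.5-fold. A last probeset was near the floor of the array, with 0.858 and 1.75, and was not kept.

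Tsc22d3 encodes GILZ, a leucine zipper protein that carries part of the anti-inflammatory action of glucocorticoids. All 3 of its kept probesets were higher on EPA&DHA. The brightest (1420772_a_at) had 1544 in the control pool against 2025 in the EPA&DHA pool, 1.31-fold higher and 1.52 local SDs from 0. The second had 1352 and 1695, and the third, which may bind unrelated transcripts (1425557_x_at), had 160.3 and 264. Their log2 ratios ran from 0.33 to 0.72, and the largest came from the dimmest probeset. A probeset with 29.3 and 35.4 was not kept.

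Klf15 and Klf9 are zinc finger transcription factors induced by the receptor, and Klf15 also promotes amino acid breakdown and gluconeogenesis during fasting. Klf15 was read by 1 probeset (1448181_at), with 175 in the control pool and 309 in the EPA&DHA pool. This was 1.77-fold higher, the highest log2 ratio of the members at 0.82, with a local SD of 0.38. Klf9 had no such difference on its bright probesets. The brightest (1428288_at) had 2590.4 and 2664, a log2 ratio of 0.04, and the next 2 had 1839 and 1519, and 1454 and 1308. Of its 3 dimmer kept probesets, 2 were at least 1.5-fold higher, from 69.9 to 117 and from 37.7 to 68.8, and 1 was lower, from 66.1 to 48.6. Local SDs at that level were 0.58 to 0.78, so these ratios were of the size of the spread or little more. The probeset with 37.7 and 68.8 was kept only through its EPA&DHA signal, and that with 66.1 and 48.6 only through its control signal. A Klf9 probeset with 57.9 and 9.80 was not kept.

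**Figure D3:**
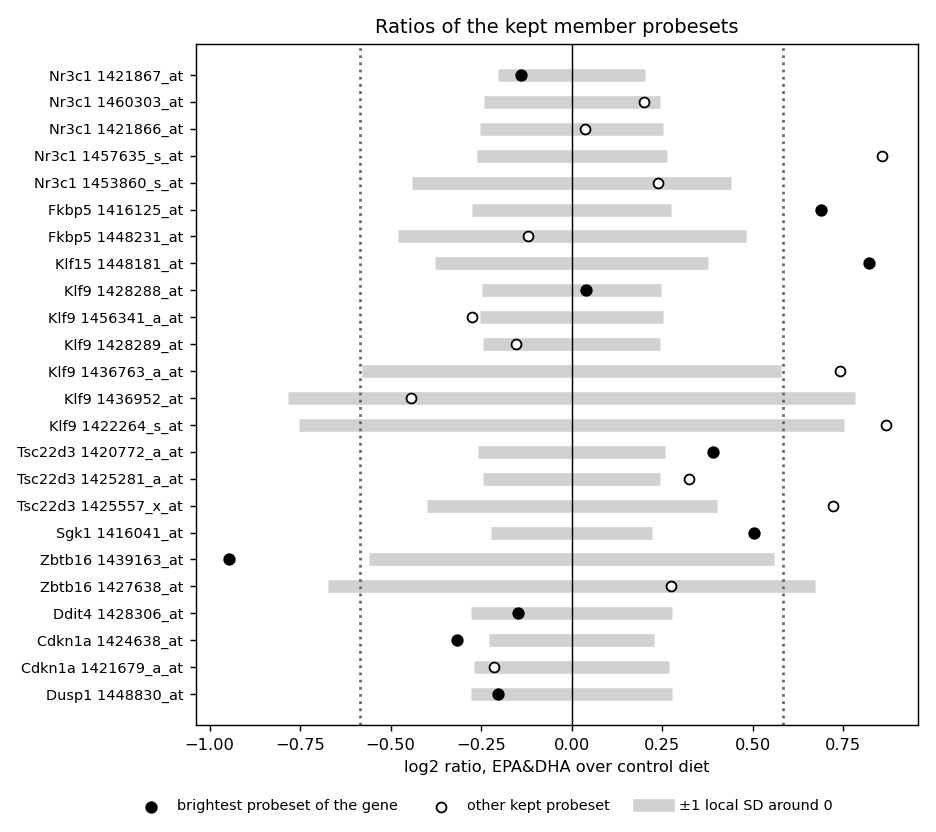
Log2 of the EPA&DHA signal over the control signal (x axis) for the 24 kept member probesets (rows), filled for the brightest of each gene. Grey bars span 1 local SD on each side of 0 and dotted lines mark 1.5-fold; Fkbp5, Klf9, Nr3c1 and Zbtb16 have kept probesets on both sides of 0.

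Sgk1 is a kinase that raises sodium transport by keeping epithelial channels and exchangers at the membrane. Its probeset (1416041_at) read 10327 in the control pool and 14631 in the EPA&DHA pool. This was 1.42-fold higher, a log2 ratio of 0.50, and with a local SD of 0.22 it lay 2.25 local SDs from 0. Of 12 listed substrates and sodium transport genes, 9 were measured, with 1 higher and 1 lower by at least 1.5-fold and a median of -0.10. The lower gene was Slc9a3, the sodium-proton exchanger of the brush border, from 7465 to 4079, a log2 ratio of -0.87. The higher gene was Ndrg1, whose product SGK1 phosphorylates, from 3043 to 4812. Other kept probesets reached log2 ratios of 1.05 for Nedd4l, 0.74 for Slc5a1, 0.60 for Slc9a3r2 and -0.65 for Atp1b1.

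Zbtb16 encodes PLZF, a zinc finger repressor. Its brightest probeset (1439163_at) had 129 in the control pool against 67.1 in the EPA&DHA pool, 1.93-fold lower, the lowest log2 ratio of the members at -0.95. The local SD at this dim level was 0.56. Its other kept probeset had 53.5 and 64.6, in the opposite direction. A probeset that was not kept had 43.8 and 1.26. The mean log2 ratio of the 2 kept probesets, which differed in sign, was -0.34 and under 1.5-fold.

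Ddit4, Dusp1 and Cdkn1a had log2 ratios below 0 on each of their kept probesets, all by less than 1.5-fold, and of these only the brightest Cdkn1a probeset lay beyond 1 local SD. Ddit4, an inhibitor of the growth kinase complex mTORC1, had 617 in the control pool and 557 in the EPA&DHA pool. Dusp1, a phosphatase that switches off MAP kinases, had 634 and 550.4. Their log2 ratios of -0.15 and -0.20 were -0.53 and -0.73 local SDs. Cdkn1a, the cell cycle inhibitor p21, had 9632 and 7740.5 on its brightest probeset and 1269 and 1094 on the other. The log2 ratios were -0.32 and -0.21, which are -1.38 and -0.80 local SDs.

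**Figure D4:**
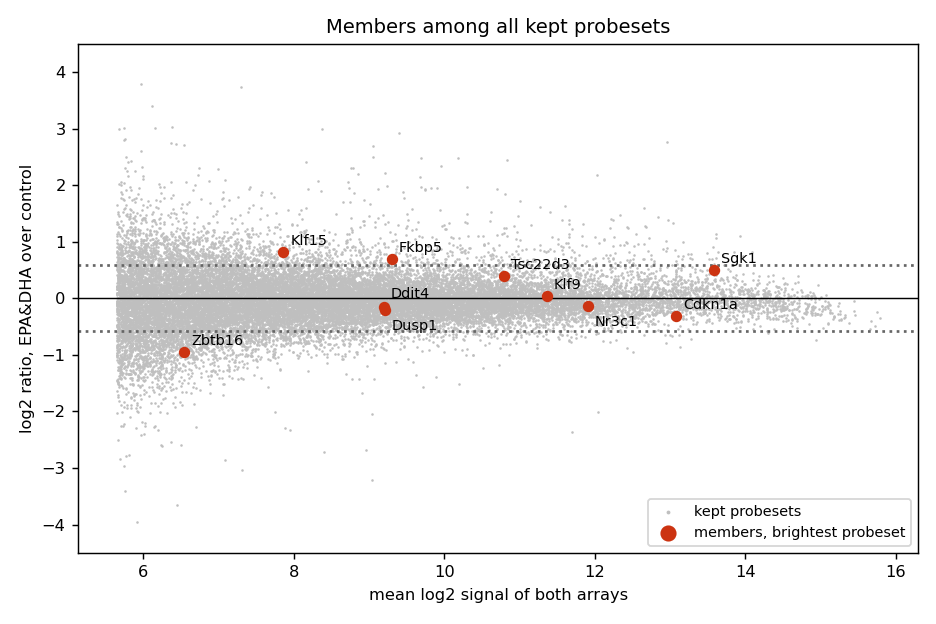
Log2 of the EPA&DHA signal over the control signal (y axis) against mean log2 signal of both arrays (x axis) for the 24461 kept probesets (grey) and the brightest probeset of each member (red). Dotted lines mark 1.5-fold; Klf15 and Fkbp5 lie above the upper line and Zbtb16 below the lower.

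Genes that share the other inputs of these members were counted from lists. Of 15 listed p53 targets, 12 were measured and 0 were at least 1.5-fold apart in either direction, with a median log2 ratio of 0.11. All 15 integrated stress and hypoxia genes were measured, with a median of 0.15. Of these, 4 (26.7%) were at least 1.5-fold higher, against 6.24% of all genes, and 0 lower, against 8.02%. The higher ones were Chac1, which degrades glutathione, at a dim 54.6 and 113, Ndrg1 again, the angiogenic factor Vegfa (663 and 1032) and the mitophagy receptor Bnip3 (1780 and 2729). The lowest of that list was Ddit3, a transcription factor of the unfolded protein response, with a log2 ratio of -0.42. Its other kept probeset had 0.67, on the opposite side of 0, and the other kept probeset of Vegfa had -0.13. Kept probesets of Phgdh and Pfkfb3 other than the brightest reached -0.69 and -0.64. Of 17 measured immediate early genes, 0 were at least 1.5-fold higher and 2 lower. These were the nuclear receptor Nr4a1 (112 and 52.7) and the transcription factor Egr1 (576 and 381), while Jun was highest with a log2 ratio of 0.20. Among 23 measured relatives of the members, 0 were at least 1.5-fold higher and 2 lower, the phosphatase Dusp4 (282 and 148) and the T cell factor Zbtb7b (1534 and 829.5). Cdkn1b, the inhibitor p27, had the highest ratio of the relatives on brightest probesets, 0.45 on the log2 scale. Other kept probesets reached 0.98 for Klf6, which is also on the immediate early list, -0.98 for Zbtb7a and -0.60 for Tsc22d2.

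Other genes known to respond to glucocorticoids went both ways. Of 24 listed, 22 were measured. Of these, 6 (27.3%) were 1.5-fold or more higher, against 6.24% of all genes, and 3 were lower by as much, against 8.02%. The median log2 ratio of the 22 was -0.01 and lay near that of all genes. The highest were Pdk4, a kinase that blocks pyruvate oxidation, from 1407 to 4308, and Mt2, a metallothionein that binds zinc, from 3084 to 8598. They were followed by Pck1, which catalyses a committed step of gluconeogenesis, at 1.14 on the log2 scale and Angptl4, an inhibitor of lipoprotein lipase, at 1.02. The lowest was Il6ra, a subunit of the interleukin 6 receptor, at 99.9 and 27.0, where the EPA&DHA signal was below the bound of 50. Pdk4 and Angptl4 are also targets of PPARα, the fatty acid receptor.

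Of the lists of the fasted state, that of PPARα genes had a higher median ratio than that of FoxO targets. The FoxO list holds Foxo1 and Foxo3 themselves but not Pdk4 or Pck1. Which factor drives a listed gene was not tested. Among 11 measured PPARα genes, 7 (63.6%) were at least 1.5-fold higher, against 6.24% of all genes, and 0 lower, against 8.02%. Their median log2 ratio was 0.69. The highest was the thioesterase Acot1 at 2.92, and the mitochondrial thioesterase Acot2 stood at 1.22. Ppargc1a, a coactivator of PPARα, was lowest at -0.15. The study named several of these genes from the same arrays, so their count is no independent evidence of a direction. Of 16 measured genes on the list of FoxO targets, which rise when insulin is low, 1 was at least 1.5-fold higher and 0 lower. Their median was 0.00. The higher gene was Bnip3, and the lowest was Sesn3, a sestrin that restrains mTORC1, at -0.53. Other kept probesets reached 0.76 for Bcl6 and -1.10 for Tob1.

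**Figure D5:**
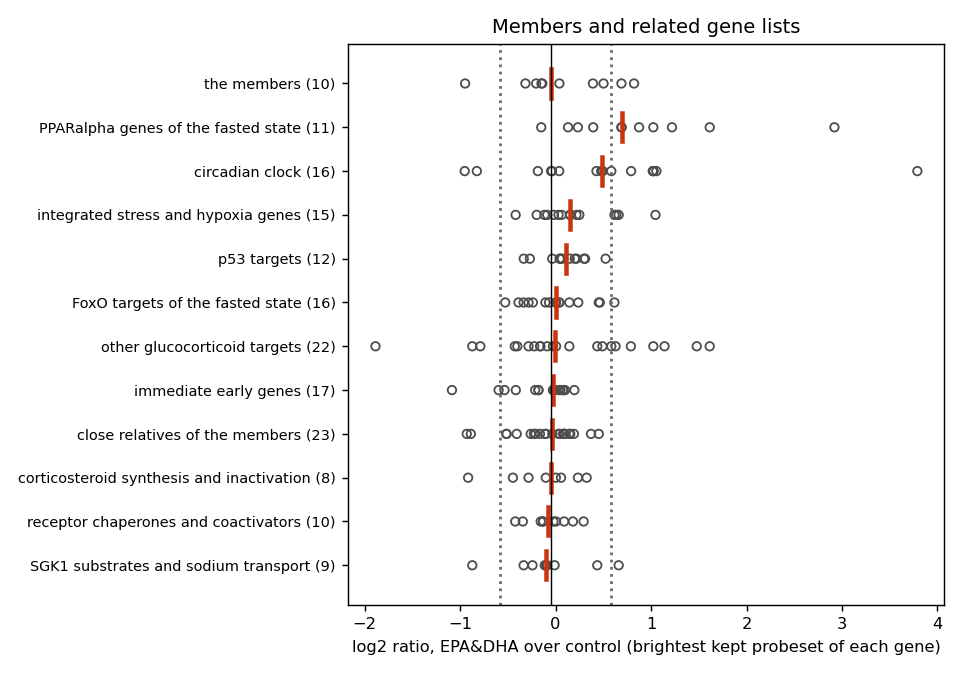
Log2 of the EPA&DHA signal over the control signal on the x axis for the measured genes (circles) of the members and of 11 lists (rows, number of genes in brackets), with the median of each in red. The black line is the median of all genes and dotted lines mark 1.5-fold; the median of the members is -0.05 and that of the PPARα genes 0.69.

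Clock genes also differed between the pools, and several members follow the daily rhythm. Of 16 measured clock genes, 6 (37.5%) had ratios of 1.5-fold or more in favour of EPA&DHA, against 6.24% of all genes. In favour of control there were 2, against 8.02%, and the median log2 ratio was 0.49. The repressors Cry2 and Per2 had 208 and 432, and 461 and 940.02. Over the 3 kept probesets of Per2 the log2 ratios ran from -0.07 to 1.03, the brightest being the highest. Dbp, an output factor of the clock, had 3134 and 6372. Npas2, an activating partner of BMAL1, was lowest, with 631 and 327. The repressor Ciart had 16.8 in the control pool, below the bound of 50, and 232 in the EPA&DHA pool, so it was kept only through its EPA&DHA signal and its ratio is not read as a size. The local SD at its level was 0.71. Their part in the ratios of Klf15, Fkbp5, Sgk1 and Tsc22d3 was not tested.

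The labelled tissue was checked by markers of intestinal and other cell types. All 11 measured enterocyte markers, such as Fabp1 and villin, had strong signals, which summed to 414467 in the control pool and 356723 in the EPA&DHA pool. On their brightest probesets 0 of 11 were at least 1.5-fold apart. Of 14 markers of the exocrine pancreas, 10 were measured, with sums of 6230.4 and 16997. All 10 stood at least 1.5-fold higher with EPA&DHA, against 6.24% of all genes. Smooth muscle and stroma markers had 1 of 7 measured at least 1.5-fold lower and sums of 2359 and 1891. B and plasma cell markers had 3 of 7 lower, with sums of 38774 and 36645. Mast cell markers had 2 of 3 lower, adipocyte markers 2 of 4 lower, and T cell markers 1 of 6 higher and 1 lower. Goblet, Paneth, enteroendocrine and macrophage markers had 0 at least 1.5-fold apart on their brightest probesets. Other kept probesets reached log2 ratios of 1.37 for Agr2, 0.63 for C1qb, -1.49 for Lyz1 and -0.93 for Clca1. No measured marker was at a signal of 0. In pooled tissue, fewer cells of a type and less RNA per cell cannot be told apart, and the part of these cell types in the member ratios was not tested. As a check of RNA integrity, control probesets at the 3' and 5' ends of Gapdh gave 3'/5' ratios of 0.932 (control) and 0.793 (EPA&DHA), and those of Actb gave 1.22 and 1.16.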

How the data were processed

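Pooled RNA of each diet was read on an Affymetrix MOE430_2 array, and the deposited values are MAS 5.0 signals. No genome build is stated in the sources used here. The authors scaled the signals, and the 2% trimmed mean was 500 on both arrays. Gene names came from the platform annotation, updated through gene identifiers to RefSeq symbols (34945 probesets named 1 gene, 932 several and 9160 none). Ratios were taken from the deposited signals without further scaling. Probesets with a geometric mean signal of at least 50 were kept (54.3%), and a gene took its brightest kept probeset that names it alone. Where a gene had several kept probesets (5350 genes), the difference in log2 ratio between its brightest and second probeset had an SD of 0.53. The precision is limited by 1 array per diet. All members were named, and of each list the genes at least 1.5-fold apart in its leading direction, at most 4, with the largest on the other side. Members and lists were chosen with earlier results of these data known. Listed genes without a probeset of their own were not analysed here. The ratio and local SD steps were tested on simulated data. Alternatives were other scalings, an offset, other filters and other probesets. Software was Python 3.11.15 with pandas 2.3.3, numpy 2.4.6, matplotlib 3.10.9 and statsmodels 0.14.6 for loess.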

Additional observations from a re-analysis of the deposited data

How the results depend on the processing

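With the mean of all kept probesets of a gene, 1 member (Klf15) was 1.5-fold or more higher and 0 were lower by as much, and the median log2 ratio of the members was 0.18. With a minimum signal of 100, 0 member genes and 0 member probesets were at least 1.5-fold lower, since the Zbtb16 probesets left the data. At that minimum, 4 member probesets were at least 1.5-fold higher. With no filter, 8 member probesets were at least 1.5-fold higher and 3 were lower by as much. With an offset of 50 added to each signal, 3 member probesets were at least 1.5-fold higher. Shares of all genes and probesets were not computed under these alternatives. The other settings (equal trimmed means, median centring, quantile normalization, loess with span 0.3 and probesets without a suffix for shared or alternative transcripts) left the member counts within 1.5 times and moved the member median by at most 0.1. Tsc22d3 has no kept probeset without such a suffix and was left out of the last setting. For single genes, 85 of 88 values moved by less than 1 local SD. The exceptions were Nr3c1 (0.24), Fkbp5 (0.29) and Zbtb16 (-0.34) under the mean of probesets, and of these Nr3c1 changed sign. Klf15 ranged from 0.68 to 0.86, Sgk1 from 0.48 to 0.54 and Tsc22d3 from 0.38 to 0.48. Scaling moved the median of all kept probesets by at most 0.04 on the log2 scale. No replicate could be left out, because each diet has 1 array. No paired analysis was possible because each diet has 1 pool.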
